A study of Homo sapiens with 3 samples.

Results

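The genes described here are 40 neural cell adhesion molecules, chosen as a list by family: the contactins, the contactin-associated proteins, NCAM, the L1 family, neurexins, neuroligins, DSCAM, ROBO receptors, ALCAM, nectins, CADM proteins and IgLONs. Of these, 39 were listed among the 17448 genes of the deposited table, and CNTN5 is not analysed here. The list was chosen with earlier results of these data known. Of the members, 31 reached 10 counts in some library, as did 14031 genes in all. RNA was sequenced from H128, an established human small cell lung cancer (SCLC) cell line, 48 h after transfection with a control siRNA (siCont) or with siRNA against ESRRG, the gene of the nuclear receptor ERRγ. Each condition, siCont, siERRG2 and siERRG3, had 1 library, 3 in all. Because no condition had a second library, no test between conditions was possible and no p-value is given. All values describe the libraries, and siERRG2 and siERRG3 were both compared with the same siCont library. Where 3 values of a gene stand in a row, they are in the order siCont, siERRG2, siERRG3.

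Most of these proteins sit in the membrane of neurons and glia, where immunoglobulin domains bind partners on the neighbouring cell or in the matrix around it. Contactins and IgLONs are held by a lipid anchor, L1 family proteins bind ankyrins and so the cytoskeleton, and neurexins on the axon pair with neuroligins on the receiving cell to organize synapses. SCLC is a neuroendocrine tumor, and NCAM (CD56) is a standard stain in its diagnosis.

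The libraries held 19861937 to 20016780 estimated counts, and the members together took 0.173%, 0.158% and 0.144% of them. ESRRG had 806, 211 and 230 counts. Of 6 neuroendocrine SCLC markers 5 were listed, with 389 to 10359 counts and a summed level of 505, 424 and 388 FPKM (counts scaled for transcript length and library size). Its members did not move together: NEUROD1 was at 7395, 7020 and 4073 counts, INSM1 at 10359, 5279 and 9168, SYP at 5279, 5169 and 3779, CHGA at 3282, 3750 and 2751, and DLL3 at 389, 486 and 578. The 3 fibroblast markers summed to 20.8, 28 and 24.3 FPKM, with DCN at 8 counts in each library, COL1A2 higher in both ESRRG libraries (2043, 2896 and 2505 counts) and COL1A1 lower in both (181, 127 and 132). The leukocyte marker PTPRC had 21 to 29 counts and the endothelial marker PECAM1 20 to 27, and no marker of these 3 lists was at 0. The 2 mesenchymal markers summed to 29.4, 40.5 and 39.7 FPKM, with YAP1 at 1 to 3 counts, the 3 epithelial markers to 6.81, 5.07 and 8.15, and the tuft-like marker POU2F3 to 0.10, 0.12 and 0.17. The part of these marker differences in the values of the members was not tested. In bulk RNA, fewer cells that express a gene and less of its RNA per cell cannot be told apart.

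NCAM1, which encodes the SCLC stain CD56, had the highest level of the members in siCont, at 59.92 FPKM, above 91.9% of all listed genes. NECTIN1 followed at 40.64 FPKM (above 87.8% of genes) and CNTN1 at 36.63 (above 86.5%). NRCAM at 24.86, L1CAM at 24.47 and ROBO1 at 22.00 FPKM formed the next group, and without replicates their order cannot be told apart. All other members were below 11 FPKM in siCont. Several members were near or at the limit of detection. CNTN6 (3, 3 and 2 counts), CNTNAP5 (0, 0 and 1), CHL1 (0, 0 and 2), NECTIN3 (2, 1 and 2) and NTM (1, 0 and 2) stayed at or under 3 counts in every library, the floor used here, so 0 counts leaves room for a level of up to 3 counts. CNTNAP4 (3, 7 and 3), NLGN3 (9, 6 and 5) and CADM2 (4, 1 and 3) were above the floor in at least 1 library but under 10 counts. The contactins, CNTNAP proteins, L1 family, neuroligins, nectins, CADM proteins and IgLONs thus had members on both sides of the limit of 10 counts, while NCAM, the neurexins, DSCAM and the ROBO receptors were above it in full.

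In the deposited annotation, 29 of the 39 listed members have an immunoglobulin domain, 16 a fibronectin type III domain and 7 a laminin G domain. Chromosome 3 holds 11 of them, where it holds 5.47% of all listed genes, and chromosome 11 holds 8, next to 5.56%. No listed gene overlapped a member on the RefSeq extents, although the deposited extent of CNTNAP1 (65.7 kb) is longer than that of RefSeq (17.5 kb) and takes in EZH1.

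**Figure D1:**
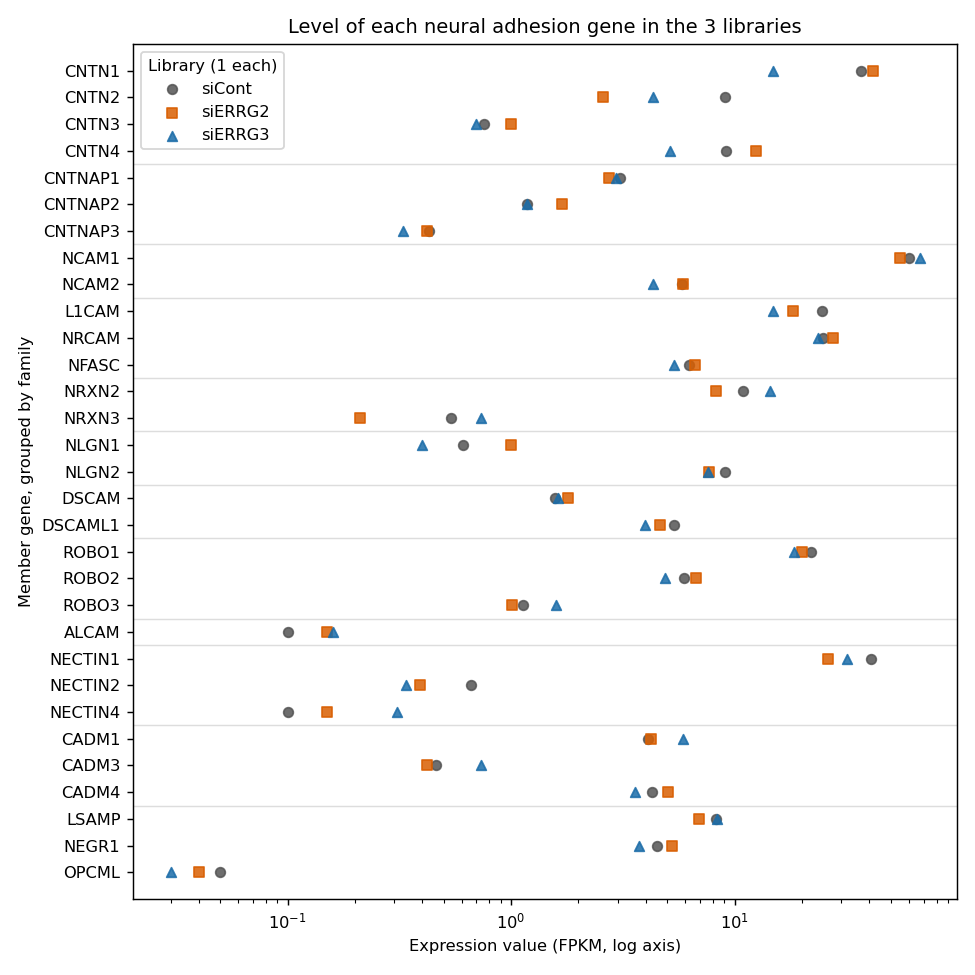
Level of each of the 31 members past the count limit (FPKM on a log axis) in siCont (circles), siERRG2 (squares) and siERRG3 (triangles), 1 library each, with no error bars because there are no replicates. NCAM1, NECTIN1 and CNTN1 lie at the right, CNTN2 shows siCont apart from both ESRRG libraries, and CNTN1 shows siERRG3 apart from the other two.

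The call for a member was a 1.2-fold difference, lower or higher, of its log2 CPM, which is the count divided by the scaled library size after a prior count of 2 is added. In siERRG2, 6 of 31 members were lower (19.4%) and 6 were higher (19.4%), next to 19.2% and 16.4% of all genes. The 6 higher include OPCML (9, 13 and 8 counts) and NECTIN4 (5, 10 and 21), which were under 10 counts in siCont and passed the limit through another library, so their count is no support for a difference. Of the 25 members with a mean of 50 counts or more, 5 were lower and 3 (12.0%) higher in siERRG2, next to 15.5% and 12.8% of genes at that depth. In siERRG3, 15 of the 31 were lower (48.4%) and 7 higher (22.6%), next to 25.1% and 23.2% of all genes. NECTIN4 is among these 7 as well, and for the same reason is no support for a difference. The median log2 difference of the members was -0.04 in siERRG2 and -0.26 in siERRG3, and over all genes it was 0 and -0.003. Of the 15 lower in siERRG3, NLGN2, ROBO1, ROBO2 and NEGR1 lay at log2 differences of -0.27 to -0.28, just past the limit, and CADM4 at -0.26 lay just short of it. Lower in both ESRRG libraries were 4 members (12.9%, all genes 7.88%), namely CNTN2, L1CAM, NECTIN1 and NECTIN2. The study had already named CNTN2 and NECTIN2 as genes regulated by ERRγ, and the list was chosen with earlier results known. No share of members given here, by either call, is therefore independent support for a difference. Higher in both ESRRG libraries were ALCAM and NECTIN4 (6.45%, all genes 7.26%), both at 21 counts or fewer in every library. NECTIN4 passed the limit only through these libraries, so it is no support here either.

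A stricter call also asked that the ratio of the scaled counts have a 95% interval (exact binomial, Clopper-Pearson) without 1. These intervals cover counting error only, so they compare libraries and not conditions. Lower in siERRG2 were then 5 members (CNTN2, L1CAM, NRXN2, NRXN3 and NECTIN1) and higher 2, CNTN4 and CNTNAP2, next to 12.8% and 10.2% of all genes. In siERRG3, 14 were lower (all of the 15 but CNTNAP3) and 5 higher (NRXN2, NRXN3, ROBO3, NECTIN4 and CADM1), next to 19.9% and 17.1%. NECTIN4 passed the count limit only through the ESRRG libraries, so its place among the 5 is no support for a difference. Lower in both were 3 (CNTN2, L1CAM and NECTIN1) next to 4.9%, and 0 were higher in both next to 3.27%. Both ESRRG libraries differ from siCont in opposite directions for CNTN4, NRXN2 and NRXN3 by either call, where 6.05% of all genes did by 1.2-fold alone and 2.92% by the stricter call.

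Most members are long genes. Their median length in RefSeq was 311.2 kb, next to 28.5 kb over 17197 listed genes, and 28 of 39 were over 100 kb, next to 18.6%. With a split chosen after seeing the data, genes over 100 kb and a mean of 50 counts or more had a higher share lower in siERRG3, 34.7% of 2216, than shorter genes, 21.8% of 9111. Among members of that depth, 9 of 18 over 100 kb and 4 of 7 shorter ones were lower in siERRG3. The median log2 difference in siERRG3 was -0.13 over all genes of that depth over 100 kb and -0.18 over such members. For shorter genes of that depth it was 0.01, and for shorter members -0.27. Without regard to length 13 of 25 such members were lower in siERRG3 (52.0%) and 4 higher (16.0%), next to 24.3% and 19.4% of 11369 genes at the same depth. The part of gene length in the count of lower members was not tested.

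**Figure D2:**
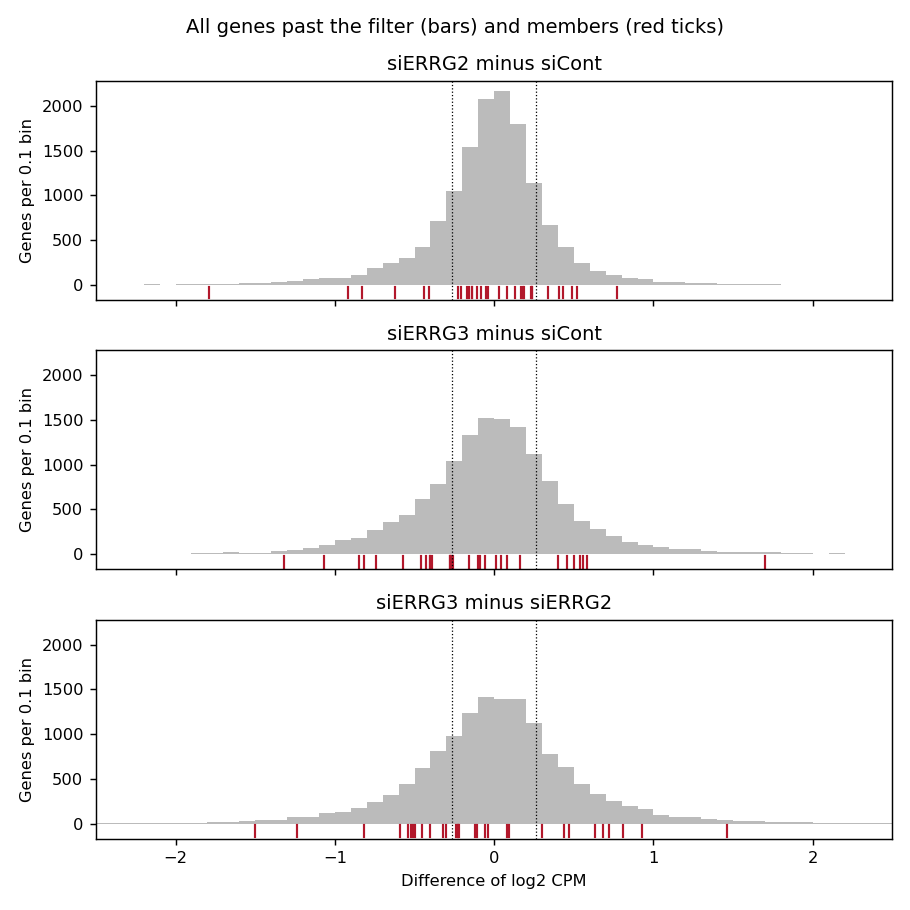
Difference of log2 CPM for all 14031 genes past the count limit (bars, genes per 0.1 bin) and for the 31 members (red ticks below 0), in siERRG2 minus siCont, siERRG3 minus siCont and siERRG3 minus siERRG2. The member ticks lie on both sides of 0 in the first panel, while in the second their median is -0.26 with 15 past 1.2-fold on the lower side.

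Contactins are lipid-anchored adhesion proteins of axons that bind L1 family members, contactin-associated proteins and receptor phosphatases. CNTN2 was low in both ESRRG libraries, whereas CNTN1 and CNTN4 were low in siERRG3 and not in siERRG2. CNTN1 (chr12:40692429-41073858, GRCh38), a component of the junction beside the node of Ranvier, had 4039, 4635 and 1645 counts (36.63, 41.43 and 14.87 FPKM). Its scaled count ratio to siCont was 1.13 (95% interval 1.09 to 1.18) in siERRG2 but 0.40 (0.378 to 0.424) in siERRG3, so siERRG3 alone was low. CNTN2 (chr1:205042937-205078272), also called TAG-1 and best known from axon guidance and myelinated fibres, had 1428, 416 and 689 counts (9.03, 2.57 and 4.29 FPKM). Here both ESRRG libraries were low, with ratios of 0.288 (0.258 to 0.321) and 0.474 (0.433 to 0.520), and siERRG3 was 1.65 times siERRG2 (1.46 to 1.87). CNTN4 (chr3:2098780-3061218), which has been tied to wiring of the olfactory and visual systems, had 1043, 1404 and 598 counts (9.17, 12.46 and 5.12 FPKM). It was the high one in siERRG2 and the low one in siERRG3, at ratios of 1.33 (1.23 to 1.44) and 0.564 (0.509 to 0.624). CNTN3 had 74, 95 and 72 counts (0.76, 1.0 and 0.70 FPKM), and no ratio between libraries had an interval without 1.

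Summed over the family, contactin counts were 6587, 6553 and 3006, a ratio of 0.983 (0.95 to 1.02) for siERRG2 and 0.449 (0.430 to 0.469) for siERRG3. The sum in siERRG2 was thus near that in siCont although its makeup was not. CNTN2 made up 21.7%, 6.35% and 22.9% of contactin counts, while CNTN1 made up 61.3%, 70.7% and 54.7%.

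**Figure D3:**
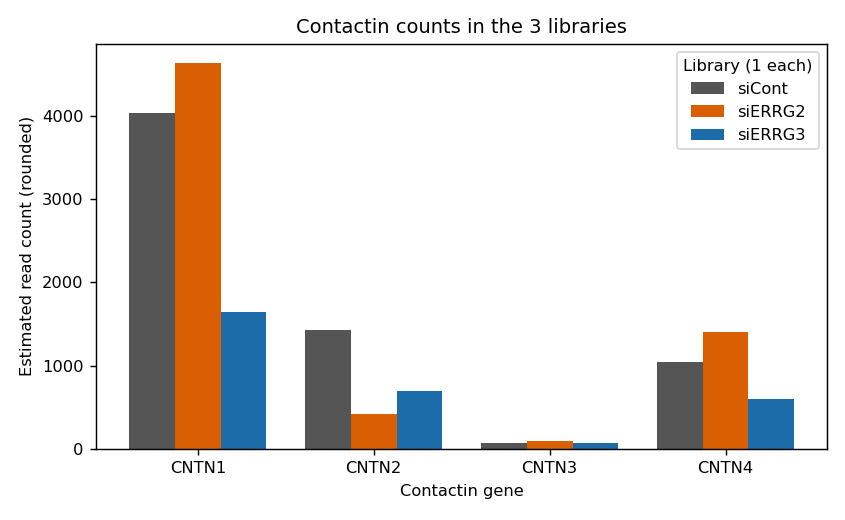
Estimated read counts (rounded, axis from 0) of CNTN1, CNTN2, CNTN3 and CNTN4 in siCont, siERRG2 and siERRG3, 1 library each, as bars without error bars because there are no replicates. CNTN1 and CNTN4 are lowest in siERRG3 and highest in siERRG2, while CNTN2 is lowest in siERRG2 and highest in siCont.

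The promoters of the contactins that differ most between libraries are shown because ERRγ is known to bind DNA at the extended half-site TNAAGGTCA, which contains the half-site AGGTCA. Each RefSeq promoter covers 300 bases around a transcription start, most of them before it, on GRCh38.p14, and both strands were searched. The AGGTCA half-site is in capitals where present. The CNTN1 promoter window shown is on the plus strand of chr12:40827934-40828233 and has the half-site from base -23 to base -18 relative to its start. Both CNTN1 windows lie inside the extent of the gene (chr12:40692429-41073858), so its outer start was not searched. Which start H128 cells use was not examined. The CNTN2 promoter, on the plus strand of chr1:205042962-205043261, has none, and neither has the second CNTN1 start or the second CNTN2 start. NLGN2 (plus strand of chr17:7407844-7407889, half-site from base 19 to 24) and NECTIN4 (minus strand of chr1:161089562-161089607, half-site from base -29 to -24, in the opposite orientation as TGACCT) are shown with 20 bases on each side. The NLGN2 stretch likewise lies inside the extent of its gene (chr17:7402979-7419864).
CNTN1: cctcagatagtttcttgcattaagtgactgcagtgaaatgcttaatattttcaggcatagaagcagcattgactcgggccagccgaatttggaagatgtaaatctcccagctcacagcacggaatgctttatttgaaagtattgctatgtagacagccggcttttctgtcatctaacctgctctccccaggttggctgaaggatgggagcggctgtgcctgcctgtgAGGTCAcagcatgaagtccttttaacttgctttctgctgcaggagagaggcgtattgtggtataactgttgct
CNTN2: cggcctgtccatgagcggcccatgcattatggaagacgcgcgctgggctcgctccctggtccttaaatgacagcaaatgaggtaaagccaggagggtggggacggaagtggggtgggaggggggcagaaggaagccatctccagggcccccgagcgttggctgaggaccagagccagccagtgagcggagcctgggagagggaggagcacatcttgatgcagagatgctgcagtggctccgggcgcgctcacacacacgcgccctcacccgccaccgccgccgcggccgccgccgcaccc
NLGN2: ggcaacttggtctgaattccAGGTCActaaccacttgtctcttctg
NECTIN4: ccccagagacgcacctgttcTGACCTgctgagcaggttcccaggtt

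Promoters were found for 32 member genes, 53 in all. TNAAGGTCA was in 0 of the 53, next to 0.951% of all 35116 promoters of this length. AGGTCA was in 3 of the 53, those of CNTN1, NLGN2 and NECTIN4 (5.66%), next to 13.8% of all promoters. These counts describe letters in these windows only. By ChIP-qPCR in H128 cells, the study reported ERRγ at promoters and/or enhancers of CNTN2 and NECTIN2. The positions of those sites were not compared with these windows.

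Contactin-associated proteins (CASPR proteins) carry laminin G domains and pair with contactins in the membrane of myelinated axons. CNTNAP1, the partner of CNTN1 beside the node, had 378, 368 and 394 counts (3.06, 2.74 and 2.94 FPKM). Its differences, -0.05 and 0.04 on the log2 scale, were small in both libraries, and both intervals of the ratio (0.831 to 1.11 and 0.888 to 1.18) took in 1. CNTNAP2, the partner of CNTN2 that gathers potassium channels, had 232, 338 and 237 counts (1.18, 1.69 and 1.18 FPKM). It was higher in siERRG2 only, at a ratio of 1.44 (1.22 to 1.71), against 1.0 (0.835 to 1.21) in siERRG3. Neither was low in the library where the contactin it binds was lowest, siERRG3 for CNTN1 and siERRG2 for CNTN2. CNTNAP3 had 46, 44 and 35 counts, and near-identical copies of it could share its reads, so it is uncertain.

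NCAM proteins bind each other across cells and, with polysialic acid attached, bind less. NCAM1 had 7173, 6567 and 8136 counts (59.92, 54.75 and 67.38 FPKM). At this depth the ratios of 0.905 (0.875 to 0.936) and 1.12 (1.08 to 1.15) had intervals without 1, though neither passed 1.2-fold, and between siERRG3 and siERRG2 the ratio was 1.23 (1.19 to 1.27). NCAM2, its olfactory relative, had 539, 576 and 397 counts (5.79, 5.87 and 4.33 FPKM). It was low in siERRG3, at 0.724 (0.635 to 0.826), and near siCont in siERRG2, at 1.06 (0.938 to 1.19).

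The L1 family links adhesion to the actin and spectrin cytoskeleton through ankyrin. L1CAM (chrX:153861429-153886420), known for axon growth and for invasion of carcinoma cells, had 2511, 1870 and 1524 counts (24.47, 18.25 and 14.82 FPKM). It was low in both ESRRG libraries, at ratios of 0.736 (0.693 to 0.782) and 0.597 (0.560 to 0.636), and lower in siERRG3 than in siERRG2, at 0.811 (0.757 to 0.868). NRCAM, which gathers sodium channels at the node, had 3194, 3545 and 3042 counts (24.86, 27.60 and 23.54 FPKM). Its ratios of 1.10 (1.05 to 1.15) and 0.937 (0.891 to 0.985) stayed within 1.2-fold. NFASC, the neurofascin of axon initial segment and node, had 669, 606 and 516 counts, with a ratio of 0.758 (0.675 to 0.852) in siERRG3 and 0.895 (0.801 to 1.0) in siERRG2. Over the 4 L1 genes listed the counts summed to 6374, 6021 and 5084, and the ratio was 0.784 (0.756 to 0.814) in siERRG3.

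In NFASC the deposited FPKM did not follow the counts, at 6.25, 6.67 and 5.35. A count divided by its FPKM and library total gives the transcript length the FPKM implies, which was 5389, 4565 and 4818 bases. The same length changed by over 10% in siERRG2 for 3 of 23 members, at ratios of 0.847 (NFASC), 0.884 (NECTIN1) and 1.16 (LSAMP), next to 2.82% of 11222 genes. In siERRG3 it did for NFASC alone of the 23, at 0.894, next to 3.8% of genes. Members with a low FPKM in any library, among them NLGN1 and NRXN3, were left out of the 23. The log2 difference of NLGN1 in siERRG2 was 0.24 by counts and 0.63 by the deposited FPKM. For NFASC, NECTIN1, LSAMP and NLGN1 the direction or size of a difference depends on which of the deposited values is read.

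Neurexins are presynaptic receptors that carry laminin G domains, and neuroligins are among their postsynaptic partners. NRXN2 (chr11:64606174-64723188) had 783, 594 and 1050 counts (10.86, 8.28 and 14.43 FPKM). It was low in siERRG2, at a ratio of 0.750 (0.673 to 0.835), and high in siERRG3, at 1.32 (1.2 to 1.45). NRXN3 followed the same order at a far lower level, with 69, 36 and 103 counts (0.54, 0.21 and 0.73 FPKM) and ratios of 0.516 (0.335 to 0.783) and 1.47 (1.07 to 2.02). Between siERRG3 and siERRG2 the ratio was 1.76 (1.59 to 1.95) for NRXN2 and 2.85 (1.93 to 4.28) for NRXN3.

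The neuroligins did not share that order. NLGN1, of excitatory synapses, had 124, 149 and 84 counts (0.61, 1.0 and 0.40 FPKM) and was low in siERRG3, at 0.666 (0.499 to 0.886), with 1.19 (0.930 to 1.52) in siERRG2. NLGN2, of inhibitory synapses, had 790, 680 and 665 counts (9.04, 7.67 and 7.56 FPKM), with ratios of 0.851 (0.767 to 0.944) and 0.828 (0.745 to 0.919), of which the second alone passed 1.2-fold.

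DSCAM proteins let neurites of a cell avoid each other, and ROBO receptors steer axons away from Slit proteins. DSCAM had 257, 297 and 276 counts (1.57, 1.79 and 1.62 FPKM), with all intervals taking in 1. DSCAML1 had 738, 646 and 557 counts (5.34, 4.65 and 3.99 FPKM), at ratios of 0.865 (0.777 to 0.963) and 0.742 (0.664 to 0.830), so its siERRG3 library was the lowest. ROBO1, the most abundant ROBO per length, had 3038, 2781 and 2565 counts (22.00, 19.95 and 18.35 FPKM), with ratios of 0.905 (0.859 to 0.953) and 0.830 (0.787 to 0.875). ROBO2 had 1018, 1155 and 850 counts (5.91, 6.69 and 4.89 FPKM), at 1.12 (1.03 to 1.22) and 0.821 (0.749 to 0.900). ROBO3, which lets axons cross the midline, went the other way in siERRG3. It had 98, 88 and 138 counts (1.13, 1.01 and 1.58 FPKM), and a ratio of 1.38 (1.06 to 1.81) in siERRG3 and 0.888 (0.658 to 1.2) in siERRG2.

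Nectins and ALCAM are adhesion proteins found in epithelia as well as in neurons, and nectins bind the actin linker afadin. NECTIN1 (chr11:119621148-119730006) had 4022, 2288 and 3130 counts (40.64, 26.10 and 31.88 FPKM). It was low in both, at count ratios of 0.562 (0.534 to 0.592) and 0.765 (0.730 to 0.802), and siERRG3 lay above siERRG2, at 1.36 (1.29 to 1.44). NECTIN2, a ligand of immune receptors, had 30, 19 and 16 counts (0.66, 0.39 and 0.34 FPKM), with ratios of 0.626 (0.333 to 1.15) and 0.524 (0.267 to 0.993). At this depth its siERRG2 difference could not be told from counting error. NECTIN4, a target of an antibody drug in urothelial cancer, had 5, 10 and 21 counts, and ALCAM had 10, 15 and 16.

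CADM proteins are nectin-like molecules of synapses and epithelia, and IgLONs are small lipid-anchored proteins of neuronal membranes. CADM1, a known tumor suppressor of non-small cell lung cancer, had 356, 367 and 512 counts (4.11, 4.21 and 5.85 FPKM). It was high in siERRG3, at 1.41 (1.23 to 1.62), and near siCont in siERRG2, at 1.02 (0.878 to 1.18). CADM4 had 179, 214 and 152 counts (4.27, 5.03 and 3.59 FPKM), with no interval without 1 against siCont but 0.707 (0.570 to 0.874) between siERRG3 and siERRG2, and CADM3 had 31, 29 and 48 counts. Among the IgLONs, LSAMP had 986, 973 and 937 counts (8.21, 6.95 and 8.36 FPKM), with intervals that took in 1. NEGR1, an IgLON of neuronal growth, had 468, 555 and 392 counts (4.49, 5.25 and 3.75 FPKM), at 1.17 (1.03 to 1.33) and 0.824 (0.718 to 0.944). OPCML had 9, 13 and 8 counts, too few to read.

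**Figure D4:**
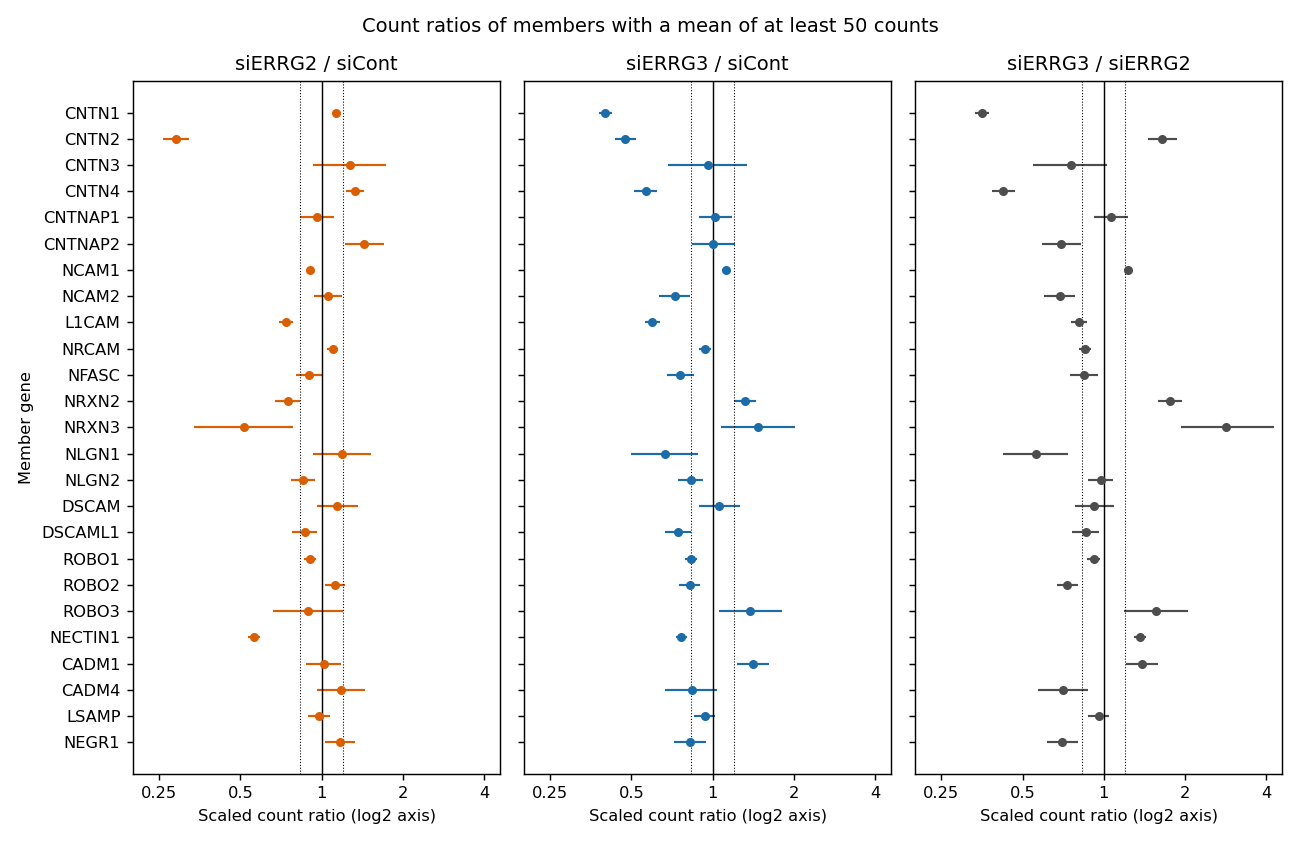
Scaled count ratio (log2 axis) of the 25 members with a mean of at least 50 counts, in siERRG2 to siCont, siERRG3 to siCont and siERRG3 to siERRG2, with 95% exact binomial intervals that cover counting error only. CNTN2, L1CAM and NECTIN1 lie below 1 in both comparisons with siCont, whereas CNTN4, NRXN2 and NRXN3 lie on opposite sides of 1.

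The ESRRG libraries were also compared with each other, which leaves siCont out. By 1.2-fold, 12 of 31 members were lower in siERRG3 than in siERRG2 (38.7%, all genes 25.3%) and 9 were higher (29.0%, all genes 26.4%). OPCML (9, 13 and 8 counts) is among the 12 and passed the count limit only through siERRG2, so it is no support for a difference. By the stricter call 9 were lower (CNTN1, CNTN4, CNTNAP2, NCAM2, L1CAM, NLGN1, ROBO2, CADM4 and NEGR1) next to 20.4% of all genes. The stricter call left 8 higher (CNTN2, NCAM1, NRXN2, NRXN3, ROBO3, NECTIN1, CADM1 and CADM3) next to 19.6%. CNTN1 at 0.353 (0.334 to 0.374) and CNTN4 at 0.424 (0.384 to 0.467) had the lowest ratios of the 31.

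A list of 61 partners of these molecules (ligands, scaffolds, cytoskeletal anchors, phosphatases, sialyltransferases and proteases) was read in the same way, and 51 were past the count limit. This list too was chosen with earlier results known, so its shares are no independent support for a difference. In siERRG2, 14 partners were lower (27.5%, all genes 19.2%) and 7 higher (13.7%, all genes 16.4%). In siERRG3, 20 were lower (39.2%, all genes 25.1%) and 6 higher (11.8%, all genes 23.2%). Lower in both were 8 (15.7%, all genes 7.88%), of which 7 by the stricter call (13.7%, all genes 4.9%). BACE1, a protease that sheds L1 family proteins, had 2169, 1064 and 1640 counts (log2 differences of -1.04 and -0.43), and SRGAP2, a ROBO effector whose near-identical copies make its count uncertain, had 1879, 1461 and 1471 (-0.38 and -0.38). MDGA1, which blocks neuroligins, had 541, 325 and 274 counts (-0.75 and -1.0). The neurexin ligands NXPH3 and NXPH4 were lower as well, NXPH3 with 285, 85 and 174 counts (-1.74 and -0.73) and NXPH4 with 343, 265 and 254 (-0.39 and -0.45). SPTBN4, the spectrin of axon initial segments, had 654, 478 and 469 counts (-0.47 and -0.50), and DLG3, a synaptic scaffold, had 237, 165 and 172 (-0.53 and -0.48). The other 1, NOTCH1, had 27, 22 and 14 counts and was named after its values were seen. Higher in both were 4 (7.84%, all genes 7.26%), CBLN2, SHANK3, DCX and ST8SIA4, each at 22 counts or fewer in every library, also named after their values were seen. CBLN2 (0, 4 and 19 counts), SHANK3 (6, 11 and 17) and DCX (6, 11 and 11) passed the count limit only through the ESRRG libraries. They are therefore no support for a difference in any count of higher partners given here.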

How the data were processed

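RNA of 3 libraries of H128 cells was used. The values were estimated counts per gene, which the authors deposited without normalization. They were rounded to whole numbers, of which 54.0% to 54.9% were whole exactly as deposited, with no tolerance. The authors also deposited an expression value whose unit is not named but which behaves as FPKM. The methods name BWA and Bowtie 2 with GRCh37/hg19, the submitters' processing notes list TopHat2, HTSeq and DESeq2 with the builds GRCh38, hg19 and hg38, and the coordinates of the table match GRCh38. HTSeq is a counting program, but the notes give no roles, so which program made these partly fractional counts is not given in the sources used here. The labels describe paired-end libraries, the methods single-end reads. The 6 columns of the authors' own comparisons (log2 ratios, p-values and adjusted values) were not used.

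Genes that reached 10 counts in some library were scaled with TMM in edgeR 4.0.16 (R 4.3.3), with factors of 0.9938, 1.003 and 1.003, and log2 CPM were taken with a prior count of 2. A call was a 1.2-fold difference. Clopper-Pearson 95% intervals of the count ratio were scaled by the same library sizes. Groups came from the sample titles, which do not say which siRNA sequence each ESRRG library received. Members with a mean of at least 50 counts were named with counts and FPKM, and with ratios where an interval left out 1 or the 1.2-fold call held in both ESRRG libraries. Members under that mean were given by their counts, except NECTIN2, which also had ratios. Partners were named at the same mean only where they passed 1.2-fold the same way in both ESRRG libraries. ESRRG is the check of the knockdown. The members and lists were chosen with earlier results of these data known. Computations were tested on simulated counts that held counting error only. Such counts cannot show how the calls and intervals behave under variation between real libraries. Alternatives were DESeq2 1.42.0 size factors, total counts, the deposited FPKM with 0.1 added, a prior count of 0.5, leaving the filter out, keeping genes with a mean of 50 counts or more, a 1.5-fold call and the interval call. Promoters are from RefSeq (GRCh38.p14). The strand column of the table was not used.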

Additional observations from a re-analysis of the deposited data

Results flagged for a closer look

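CNTN4, NRXN2 and NRXN3 differed from siCont in opposite directions in the 2 ESRRG libraries, which is what brought them here. The log2 difference of CNTN4 was 0.41 in siERRG2 and -0.82 in siERRG3. For NRXN2 the differences were -0.41 and 0.40, and for NRXN3 they were -0.92 and 0.54. With 1 library per condition these differences were not tested.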

How the results depend on the processing

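No paired analysis was possible because each condition had 1 library and the replicate numbers only name the libraries. For the same reason no library could be left out. Of the recomputed fold differences of single members, 305 moved by less than their interval, 7 moved by more, and all 7 were under the deposited FPKM (NFASC, NLGN1, NECTIN1 and LSAMP in siERRG2, NFASC in siERRG3, and NECTIN1 and LSAMP between the ESRRG libraries). No difference past 1.2-fold changed sign, but smaller ones did under the deposited FPKM: NFASC in siERRG2 from -0.16 to 0.09, CNTNAP1 in siERRG3 from 0.04 to -0.06, and LSAMP from -0.10 to 0.03 in siERRG3 and from -0.06 to 0.26 between the ESRRG libraries. The members lower in siERRG3 were 13 by total counts, 11 by the deposited FPKM and 11 with a mean of at least 50 counts and library sizes scaled over those genes alone, against 15. With no filter on low counts, 10 members in place of 6 were lower in siERRG2 and 14 in place of 9 were higher in siERRG3 than in siERRG2. With a mean of at least 50 counts, 3 in place of 6 were higher in siERRG2, 4 in place of 7 in siERRG3, and 0 members and 0 partners were higher in both. At 1.5-fold, 1 member was higher in siERRG2, 5 in place of 15 were lower and 1 higher in siERRG3, 2 in place of 4 were lower and 1 higher in both, 4 in place of 12 were lower in siERRG3 than in siERRG2, and 2 of 8 partners were lower in both. With the interval call, 2 members were higher in siERRG2, and 0 members and 0 partners higher in both. The stricter calls and filters keep fewer genes by construction. Depth limits members under 50 counts, such as NECTIN2, ALCAM and NECTIN4.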

Other observations

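Some partner genes differed in 1 ESRRG library by more than most members, and were picked after their values were seen. Of the 3 ankyrins, which anchor L1 family proteins, ANK2 and ANK3 were low in siERRG3, ANK2 with 1225, 1342 and 477 counts in the order siCont, siERRG2, siERRG3 (ratio of the last to the first 0.383, 95% interval 0.344 to 0.426) and ANK3 with 3025, 2971 and 1294 (0.421, 0.394 to 0.449), while ANK1 had 139, 141 and 136 (0.962, 0.754 to 1.23). LRRTM2, a postsynaptic ligand of neurexins, had 393, 355 and 101 counts (0.253, 0.201 to 0.315). ST8SIA2, an enzyme that adds polysialic acid to NCAM, had 982, 971 and 660 counts (0.661, 0.598 to 0.730). TNC, a matrix ligand of contactins, was instead high in siERRG2, with 894, 1738 and 1056 counts and a ratio of 1.92 (1.77 to 2.09) there.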
